A study of Mesocricetus auratus with 6 samples.

Results

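The genes described here are 10 hamster genes of the AP-1 transcription factor and of the acute stress response: Jun, Junb, Jund, Fos, Atf3, Ier2, Egr1, Ddit4, Gadd45b and Nupr1. They were taken by symbol after the NCBI Gene IDs of the expression files had been matched to golden hamster gene names, and all 10 were found among the 16078 genes listed. They were chosen by their measured FPKM levels, several for being high in the library vector 1 and some for being high in STYK1 2 as well, so these levels are given as a description and not as a test. The libraries came from BHK21 cells, a fibroblast-like line from the kidney of the golden hamster, Mesocricetus auratus, labelled as kidney from an animal aged one day. Of the 6 RNA sequencing libraries, 3 were from cells transfected with STYK1/NOK (STYK1 1 to 3) and 3 from cells transfected with pCMV-Myc, the empty expression vector (vector 1 to 3). STYK1/NOK is a membrane protein with a kinase-like domain, called an oncogene in the series title. Which species the transfected sequence came from is not in the labels. All cells went through transfection, RNA was taken 48 after it with no unit given, and no untransfected library was analysed here. Nothing in the labels ties the libraries to separate cultures, so errors and p-values cover only library-to-library spread, part of which may be technical.

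AP-1 is a dimer of proteins with a basic region, which contacts DNA, and a leucine zipper, which holds the partners together. JUN proteins pair with each other or with FOS proteins, and the related ATF3 joins the same network under stress. Most of their genes, with Ier2 and Egr1, are immediate early genes. Immediate early genes are transcribed quickly after serum, growth factors, handling or stress, with short-lived mRNAs, through kinases of the ERK, JNK and p38 families. Jund depends least on growth stimuli. Ddit4, Gadd45b and Nupr1 are stress-induced genes of other kinds, acting on mTORC1, on stress kinases and DNA repair, and on chromatin.

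Before the results, 1 library has to be set apart. Vector 1 correlated with the other 5 libraries at 0.963 to 0.976 (Pearson, log2(FPKM + 1) over the 11464 genes that averaged 1 FPKM or more in either group), and its FPKM values, which are fragments scaled by transcript length and library size, summed to 619840 against 528160 to 557946 in the others. Its 10 highest genes took 8.40% of the sum, against 6.85% to 7.45%. The number of reads was not given. A rough estimate took the commonest ratio of low FPKM values (0.8 to 6 FPKM) between STYK1 1 and each library. It put the depth of the libraries between 0.979 and 1.03 times that of STYK1 1. Since FPKM is already scaled by library size, this estimate cannot exclude unequal depth. The hamster gene Styk1 measured 2.04, 2.46 and 2.41 FPKM in STYK1 1, 2 and 3, against 1.5, 1.80 and 1.89 FPKM in vector 1, 2 and 3. Of the 11 fibroblast markers matched, Vim, Fn1, Sparc, Pdgfra and Pdgfrb were above 35 FPKM in every library, Dcn lay between 3.51 and 6.79 FPKM, and the other 5 (Col1a1, Col1a2, Col3a1, Thy1 and Lum) stayed at or below 1.02 FPKM. All 6 kidney epithelial markers matched were below 1 FPKM in every library, with a summed level of 0.09 to 0.39 FPKM in STYK1 and 0.19 to 0.32 FPKM in vector libraries. Of 7 macrophage markers, Cd14 and Cd68 were above 170 FPKM throughout and Csf1r lay between 2.91 and 3.70 FPKM. The other 4, Ptprc, Adgre1, Itgam and Lyz, were below 1 FPKM in every library. Of 4 endothelial markers, 3 were below 1 FPKM in every library and Cdh5 lay between 4.45 and 9.11 FPKM.

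The members of AP-1 itself were all expressed. Junb, a JUN protein that can restrain c-JUN, measured 69.7, 98.0 and 70.8 FPKM in STYK1 1, 2 and 3, against 125, 82.9 and 74.2 FPKM in vector 1, 2 and 3. Jund, the JUN protein least dependent on growth stimuli, measured 49.3, 68.1 and 49.9 FPKM in STYK1 and 93.3, 56.9 and 56.0 FPKM in vector libraries. For both genes vector 1 was the highest library and STYK1 2 the next, and the groups overlapped because STYK1 2 lay above vector 2 and 3.

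Jun, which encodes c-JUN, the main target of JNK, measured 39.9, 70.6 and 36.4 FPKM in STYK1 1, 2 and 3, against 79.0, 34.3 and 39.0 FPKM in vector 1, 2 and 3. Vector 1 and STYK1 2 stood together, and the other 4 libraries lay within 34.3 to 39.9 FPKM. Fos, the partner of c-JUN in the classical heterodimer, measured 38.0, 51.7 and 32.8 FPKM in STYK1 and 64.1, 39.0 and 39.6 FPKM in vector libraries. Atf3, an ATF family member that responds to many stresses, was the least expressed, with 6.71, 9.03 and 4.53 FPKM in STYK1 and 9.69, 7.06 and 6.05 FPKM in vector libraries. Fos and Atf3 had the same pair of high libraries, and STYK1 3 was the lowest of the 6 for each.

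The other 2 immediate early genes differed from each other. Ier2, which encodes a small nuclear protein, measured 30.6, 39.7 and 27.75 FPKM in STYK1 1, 2 and 3, against 68.35, 35.7 and 33.2 FPKM in vector 1, 2 and 3. Vector 1 was again the highest, at 1.72 times STYK1 2, the next. Egr1, a zinc finger factor induced through SRF and ELK proteins, measured 48.7, 42.0 and 43.0 FPKM in STYK1 and 50.8, 44.75 and 46.7 FPKM in vector libraries. Egr1 varied by 1.21 times between its highest and lowest library, and STYK1 2 was its lowest.

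Of the stress effectors, Ddit4 (also called REDD1), an inhibitor of mTORC1, measured 36.2, 57.4 and 37.0 FPKM in STYK1 1, 2 and 3, against 92.1, 45.9 and 38.7 FPKM in vector 1, 2 and 3. Gadd45b, which activates the p38 and JNK kinase cascade through MAP3K4, measured 20.75, 35.25 and 18.95 FPKM in STYK1 and 53.56, 24.5 and 26.95 FPKM in vector libraries. Both had vector 1 highest and STYK1 2 next. Nupr1, a small chromatin-associated stress protein, measured 47.1, 45.5 and 44.2 FPKM in STYK1 and 76.35, 34.45 and 40.0 FPKM in vector libraries. Vector 1 stood alone for Nupr1, the 3 STYK1 libraries lay close together, and vector 2 and 3 were the lowest.

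**Figure D1:**
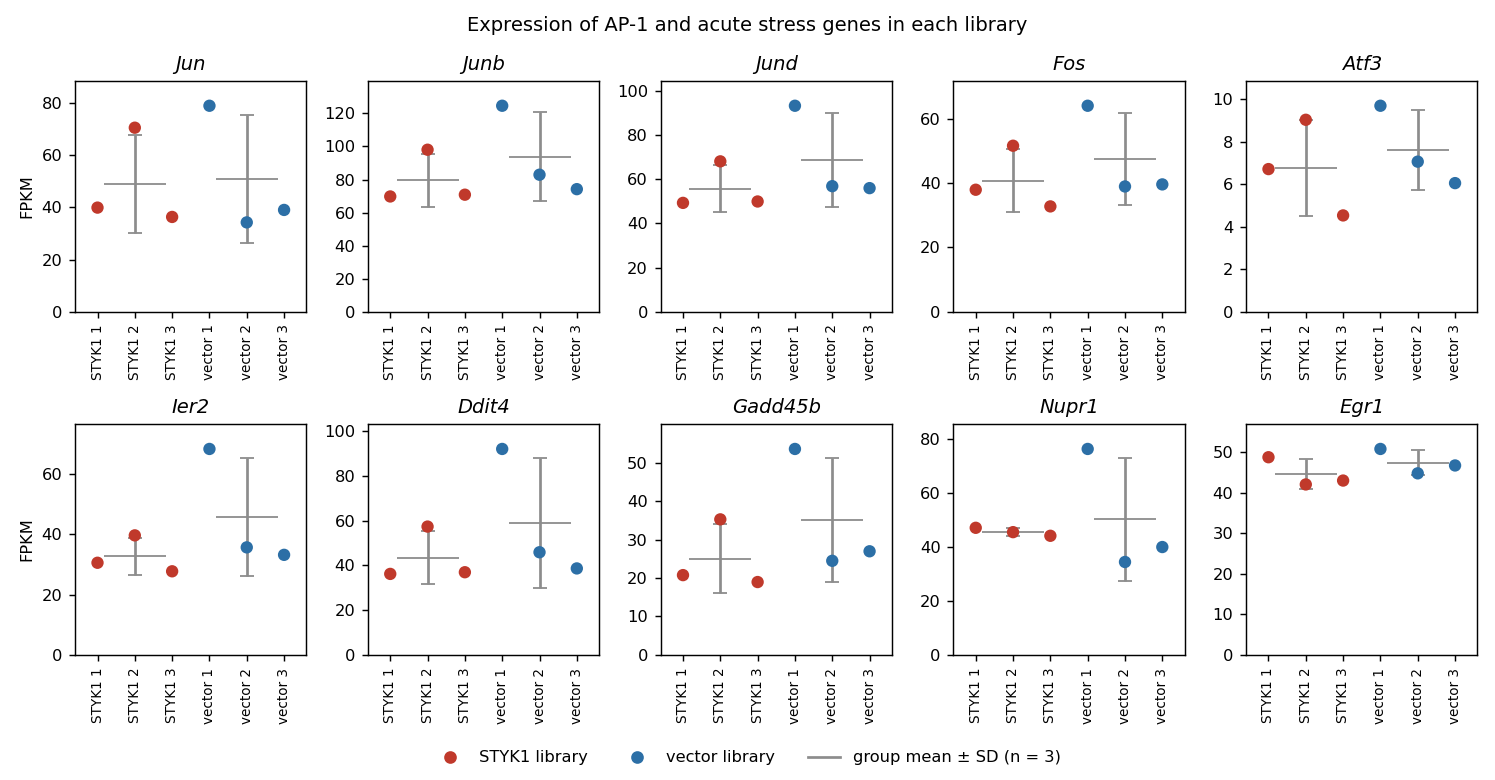
FPKM of each gene (vertical axes, linear from 0, 1 panel per gene) in STYK1 libraries (red, left) and vector libraries (blue, right), with the group mean and SD (grey, n = 3). Vector 1 is the highest library in all 10 panels, and STYK1 2 is the next in 8, the exceptions being Nupr1 and Egr1.

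Because FPKM is per length, levels can also be ordered between genes. Junb had the highest mean over the 6 libraries, 86.7 FPKM, and was the highest of the 10 genes in each library. Jund followed at 62.2 FPKM, above Ddit4 in 6 of 6 libraries, although in vector 1 the gap was 93.3 against 92.1 FPKM. Ddit4 (51.2 FPKM), Jun (49.9 FPKM), Nupr1 (47.9 FPKM), Egr1 (46.0 FPKM) and Fos (44.2 FPKM) were not separable from their neighbours, since each order was reversed in at least 2 libraries. Fos was above Ier2 (39.2 FPKM) in 5 of 6 libraries, Ier2 above Gadd45b (29.99 FPKM) in 6 of 6, and Gadd45b above Atf3 (7.18 FPKM) in 6 of 6. By mean level, 9 of the 10 genes stood above 69.3% or more of the genes tested, and Atf3 above 27.6%.

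The libraries in which these genes were high were largely the same ones. Vector 1 was the highest of the 6 libraries for 10 of 10 genes, and it was so for 37.1% of all genes tested. Vector 1 and STYK1 2 were the 2 highest libraries for 8 of 10, all but Nupr1 and Egr1, and for 15.6% of all genes. With vector 1 left out, STYK1 2 was the highest of the remaining 5 for the same 8 genes, and for 32.7% of all genes. These counts follow from how the genes were chosen and support nothing further. After each library was scaled to the same FPKM sum, vector 1 was the highest for 7 of 10 genes. STYK1 2 was then the highest for Jun and Atf3, and STYK1 1 for Egr1, while the pair of high libraries remained for 8.

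The size of the excess differed between genes. Relative to the mean of the 4 other libraries (STYK1 1 and 3, vector 2 and 3), vector 1 was 2.35 times as high for Gadd45b, 2.33 times for Ddit4, 2.15 times for Ier2 and 2.11 times for Jun. It was 1.84 times as high for Nupr1, 1.76 for Jund, 1.72 for Fos, 1.68 for Junb, 1.59 for Atf3 and 1.11 for Egr1. The median over all genes tested was 1.01, and 90% of genes were below 1.48. STYK1 2 was 1.89 times the same mean for Jun, 1.55 for Gadd45b, 1.48 for Atf3, 1.45 for Ddit4, 1.38 for Fos, 1.32 for Junb, 1.28 for Jund and 1.25 for Ier2. For Nupr1 and Egr1 it was 1.10 and 0.918 times that mean, against a median over all genes of 1.03. The order of the genes was thus not the same in both libraries: Jun was nearly as high in STYK1 2 as in vector 1, with vector 1 at 1.119 times STYK1 2, whereas Ier2, Nupr1 and Ddit4 had vector 1 at 1.72, 1.68 and 1.605 times STYK1 2.

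**Figure D2:**
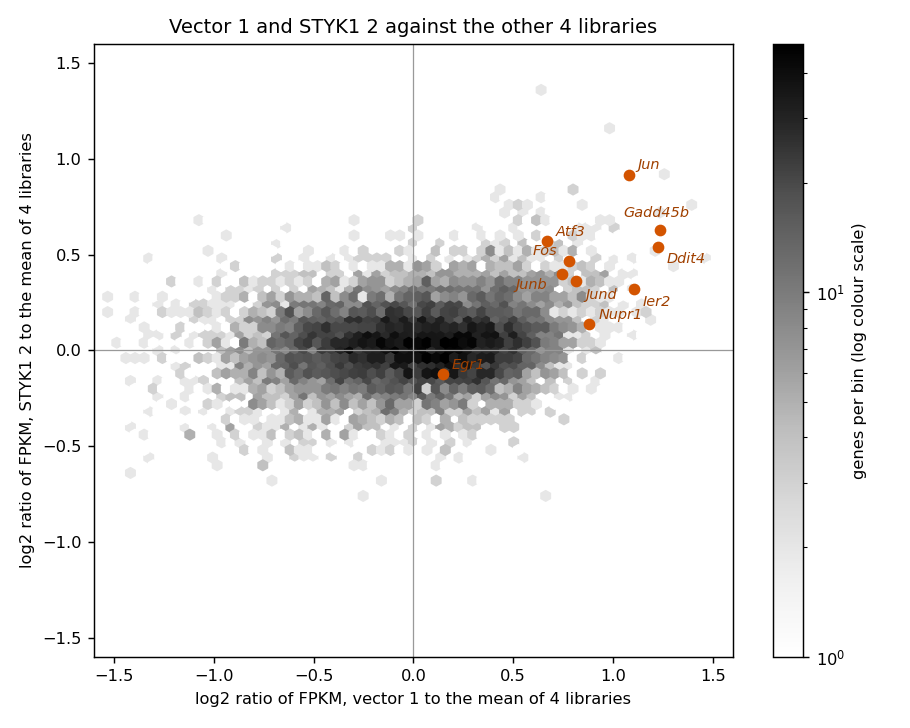
Log2 ratio of FPKM in vector 1 (horizontal) and in STYK1 2 (vertical) to the mean of the other 4 libraries, for all genes tested (grey bins, darker where more genes fall, log colour scale) and for the 10 genes (orange); 162 genes lie outside the plotted range or have no ratio. Of the 10, 9 have a vector 1 ratio above the 1.48 that 90% of all genes stay below, Jun is the highest in STYK1 2, and Egr1 lies within the bulk.

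In the 4 libraries other than vector 1 and STYK1 2, the highest was 1.18 times the lowest in the median over all genes tested. It was 1.13 times for Egr1, 1.15 times for Jund and 1.17 times for Jun, all below that median, and 1.19 times for Junb and 1.21 times for Fos. The other 5 genes lay further above the median. It was 1.27 times for Ddit4, 1.29 times for Ier2, 1.37 times for Nupr1, 1.42 times for Gadd45b and 1.56 times for Atf3, the gene with the lowest level.

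Across the 6 libraries, the log2(FPKM + 1) values of the 10 genes were positively correlated in all 45 pairs, with a median Pearson r of 0.860 and a range of 0.213 to 0.996, and a median Spearman rho of 0.714. The closest pair was Junb with Ddit4 (r = 0.996, rho = 1), followed by Jund with Ddit4 (r = 0.990, rho = 1). The 28 pairs that leave out Nupr1 and Egr1, a subset formed after the values were seen, had r between 0.829 and 0.996. For Jun with Fos, the partners of the classical AP-1 dimer, r was 0.941 and rho 0.714. Egr1 was the least tied to the rest, with r between 0.213 and 0.621. All these points share 6 libraries, and vector 1 and STYK1 2 lie far from the others, so r describes these libraries and carries no p.

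Without vector 1 alone the median r over 5 libraries was 0.804, and 13 of 45 pairs were below 0. The 28 pairs that leave out Nupr1 and Egr1 had r between 0.674 and 0.999 there, with a median of 0.888 and 0 below 0. Without STYK1 2 as well, the median r over 4 libraries was 0.482, with a range of -0.982 to 0.996, and 14 of 45 pairs were below 0. Of the same 28 pairs, whose median was then 0.583, 4 were below 0, all of them pairs with Jun. Junb with Ddit4 kept r = 0.996 over these 4 libraries, and Junb with Jund had r = 0.860. Jun with Junb, at 0.893 over 6 libraries, had r = -0.762 over 4, and Jun with Fos had r = 0.195. Nupr1 ran against Junb, Ddit4 and Jund, with r = -0.982, -0.965 and -0.920 over the 4. Several of the genes had been chosen for being high in vector 1, and some for being high in STYK1 2 as well. For those genes a lower r without these libraries follows from the choice, and r over 4 points is only a description.

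To find other genes with the same course, the centred log2 values of the 10 genes were averaged into 1 profile, which was 0.64 in vector 1, 0.20 in STYK1 2, -0.15 in vector 2, -0.16 in vector 3, -0.20 in STYK1 1 and -0.33 in STYK1 3. Fos, Jund and Gadd45b followed it most closely (r = 0.990, 0.986 and 0.982), and Egr1 least (r = 0.435). Of 348 other named genes averaging 5 FPKM or more, with a range of at least 1 log2 unit, 57 had r above 0.9 with this profile and 66 had r below -0.9. That range could be reached through vector 1 alone, the library that also weighed most in the profile. High and low r are then likely, so these counts and the genes named below are a description only.

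The 10 genes most like the profile had r between 0.9754 and 0.991 over the 6 libraries, and between 0.0629 and 0.956 over the 4 without vector 1 and STYK1 2. They were Kank3, Hlx, Ankrd34a, Traf2, Ngrn, Dynlrb2, Borcs6, Oxld1, Znf580 and Rhob. Rhob, a small GTPase gene that is itself an immediate early gene, measured 64.8, 90.1 and 57.2 FPKM in STYK1 1, 2 and 3, against 122, 74.2 and 75.9 FPKM in vector 1, 2 and 3. Traf2, an adaptor of TNF receptors, measured 13.6, 19.6 and 14.2 FPKM in STYK1 and 28.3, 15.5 and 15.4 FPKM in vector libraries. Kank3 measured 14.1, 23.3 and 13.4 FPKM in STYK1 and 40.2, 17.3 and 14.7 FPKM in vector libraries, and it was also the gene most like Junb (r = 0.992) and most like Ddit4 (r = 0.998). Of the other members, Egr1 aside, the most like genes were Bicra for Jun (r = 0.982), Traf2 for Jund (0.997), Borcs6 for Fos (0.985) and Gadd45b (0.995), Znf579 for Atf3 (0.914), Znf580 for Ier2 (0.993) and Gon7 for Nupr1 (0.909).

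The 5 genes most unlike the profile were Sgo1, Tyms, Ccnb1, Ccna2 and Cenpi, with r between -0.998 and -0.988. They had r between -0.998 and -0.721 over the 4 libraries without vector 1 and STYK1 2. Ccnb1, which encodes cyclin B1 of mitotic entry, measured 50.0, 34.3 and 54.4 FPKM in STYK1 1, 2 and 3, against 22.7, 44.4 and 48.9 FPKM in vector 1, 2 and 3. Tyms, the thymidylate synthase of DNA precursor synthesis, measured 40.2, 24.7 and 44.9 FPKM in STYK1 and 16.4, 35.0 and 36.4 FPKM in vector libraries. Both genes were lowest in vector 1 and next lowest in STYK1 2, the libraries in which 8 of the AP-1 and stress genes were highest. Relative to the mean of the other 4 libraries, the 5 genes stood at 0.400 to 0.459 times in vector 1 and 0.631 to 0.751 times in STYK1 2. The part of cell division in the levels of the AP-1 and stress genes was not tested. In bulk RNA, fewer expressing cells and less RNA per cell cannot be told apart.

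**Figure D3:**
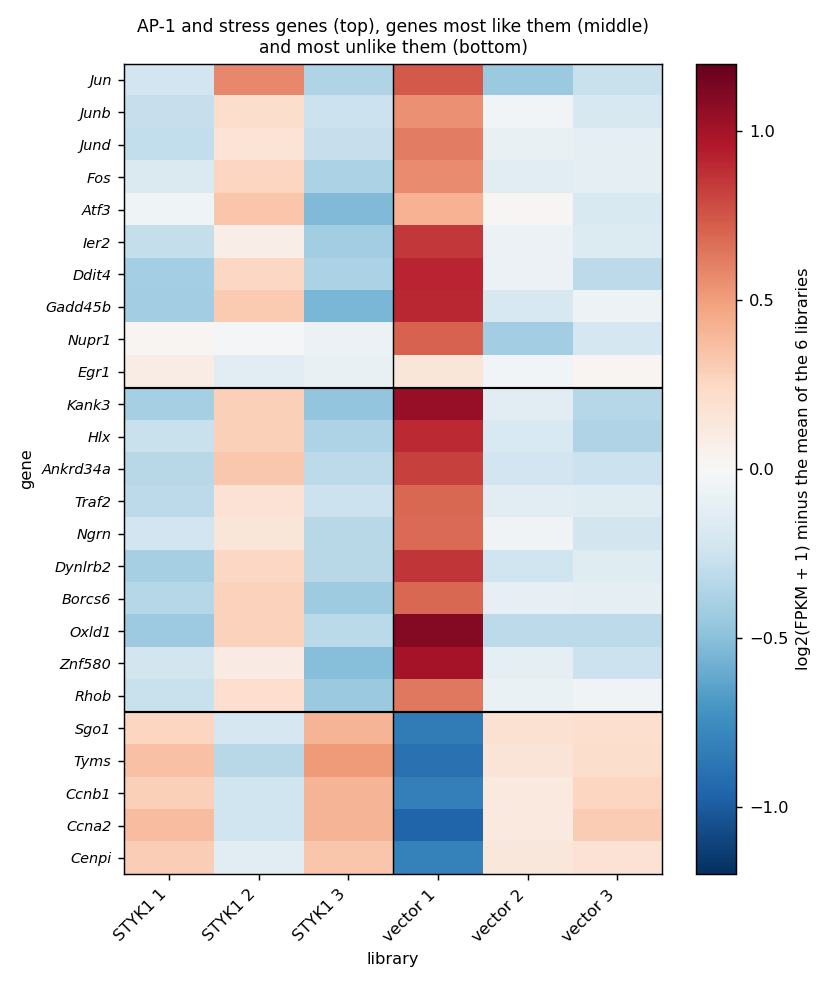
Log2(FPKM + 1) minus the mean of the 6 libraries (colour) for the 10 genes (top), the 10 genes most like their mean profile (middle) and the 5 most unlike it (bottom), in STYK1 libraries (left) and vector libraries (right). Vector 1 is red for all upper and middle genes and blue for the 5 bottom genes, and STYK1 2 has the same colours in a paler shade except for Nupr1 and Egr1.

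The series compares STYK1/NOK with the empty vector. In that comparison 0.00% of genes passed (limma-trend on log2(FPKM + 1), 0 of 11464 at a Benjamini-Hochberg adjusted p under 0.05, 1128 at an unadjusted p under 0.05, smallest adjusted p = 0.469), so 0 of the 10 genes passed. At the unadjusted threshold 4.95% of all genes were higher and 4.88% lower in STYK1 libraries, and 0 of the 10 were among them. The 3 STYK1 libraries lay wholly below or above the 3 vector libraries for 0 of 10 genes, where 9.44% of all genes were wholly below and 13.6% wholly above. For the 8 genes with vector 1 and STYK1 2 as the highest pair the groups had to overlap. This count therefore follows from how the genes were chosen. The log2 difference, STYK1 minus vector, was below 0 for 10 of 10 genes, with a median of -0.21, and below 0 for 47.3% of all genes, whose median was 0.01. Under equal FPKM sums, which moved the median of the 10 genes to -0.10, it was above 0 for Jun (0.09), Nupr1 (0.06) and Egr1 (0.02), and after quantile normalization for Jun alone (0.03). Equal sums also moved the median of all genes, to 0.12, a shift of 0.10, and relative to the median of all genes the median of the 10 lay at -0.22 both before and after that scaling. Since several of the genes were picked for being high in vector 1, these values describe that library as much as the groups.

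Gadd45b averaged 25.0 ± 8.94 FPKM in STYK1 and 35.0 ± 16.1 FPKM in vector libraries (SD, n = 3 each), a log2 difference of -0.43 ± 0.32 (SE). Ier2 averaged 32.7 ± 6.23 and 45.75 ± 19.6 FPKM in STYK1 and vector libraries, a log2 difference of -0.41 ± 0.26 (SE). Ddit4 averaged 43.5 ± 12.0 FPKM in STYK1 and 58.9 ± 29.0 FPKM in vector libraries, a log2 difference of -0.36 ± 0.31 (SE). The spread within the vector group, most of it from vector 1, was larger than each of these differences of means.

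For the JUN and FOS genes the log2 differences were smaller. Jund averaged 55.8 ± 10.7 FPKM in STYK1 and 68.7 ± 21.3 FPKM in vector libraries, a difference of -0.27 ± 0.21 (SE). Junb averaged 79.5 ± 16.0 and 93.9 ± 27.0 FPKM in STYK1 and vector libraries, a log2 difference of -0.22 ± 0.20 (SE). Fos averaged 40.8 ± 9.76 FPKM in STYK1 and 47.6 ± 14.3 FPKM in vector libraries, a log2 difference of -0.20 ± 0.22 (SE). Each SE was close in size to its difference. Atf3, Egr1, Nupr1 and Jun had log2 differences of -0.17 ± 0.24, -0.09 ± 0.09, -0.05 ± 0.25 and -0.02 ± 0.34 (SE). The 95% interval of the log2 difference covered 0 for all 10 genes, and for Jun it ran from -0.79 to 0.76. For Egr1, the gene with the smallest spread, it ran from -0.30 to 0.13. Several of the genes were chosen for high values in single libraries, which widen the SE. The intervals are therefore a description and not a test.

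Leaving vector 1 out moved the median of the 10 genes to 6.89e-04, with 5 of 10 below 0. Jun was then at 0.35 and Nupr1 at 0.29, while Gadd45b and Ier2, the lowest before, were both at -0.09. That fit keeps STYK1 2, where 8 of the genes were high, and so sets a high library against none.

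With both vector 1 and STYK1 2 left out, STYK1 1 and 3 were compared with vector 2 and 3. For 6 of the 10 genes both STYK1 libraries lay below both vector libraries: Junb, Jund, Fos, Ier2, Ddit4 and Gadd45b. This order held for 21.0% of all genes. Nupr1 had the opposite order, which 25.8% of all genes had, and Jun, Atf3 and Egr1 overlapped. The log2 difference was -0.36 ± 0.08 (SE) for Gadd45b, -0.23 ± 0.08 for Ier2, -0.20 ± 0.09 for Ddit4, -0.18 ± 0.05 for Jund, -0.16 ± 0.07 for Junb and -0.15 ± 0.08 for Fos. It was -0.21 ± 0.17 for Atf3, 0.06 ± 0.08 for Jun, 0.0014 ± 0.074 for Egr1 and 0.29 ± 0.08 for Nupr1. Of 11452 genes tested in these 4 libraries, 0 passed (limma-trend, smallest Benjamini-Hochberg adjusted p = 0.115), while 1567 had an unadjusted p under 0.05. None of the 10 genes passed, therefore. The 2 libraries were left out after the values were seen, and several of the genes had been chosen for being high in 1 or both of them. The SEs and orders given here are thus a description of 4 libraries and not a test.

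**Figure D4:**
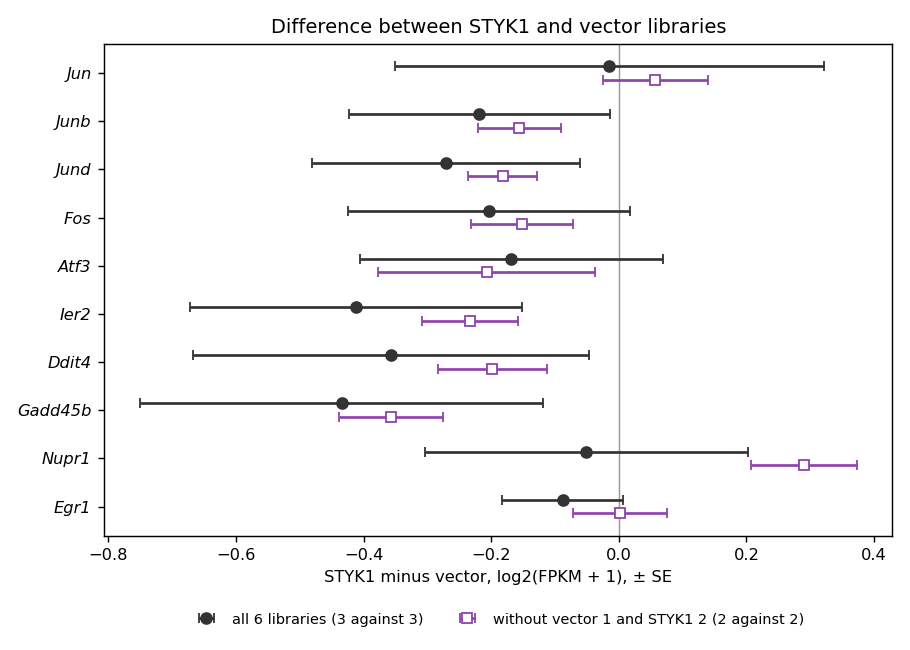
STYK1 minus vector difference in log2(FPKM + 1), with its SE, for each gene in all 6 libraries (filled circles) and without vector 1 and STYK1 2 (open squares). All 10 circles lie at or left of 0 with wide errors, and of the squares 7 lie left of 0, with Nupr1 at 0.29.

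Other genes of the pathways were read from 8 lists that hold none of the 10 genes. Of their 175 genes tested, 0 passed and 16 had an unadjusted p under 0.05, 6 higher and 10 lower in STYK1 libraries. That is 9.14%, against 9.84% of all genes. By direction, 4.95% of all genes were higher and 4.88% lower, which are the shares to set beside each list below. The split of the list genes depended on the scaling, with 20 higher and 5 lower under equal FPKM sums. The mean centred levels of the lists lay between -0.14 and 0.15 log2 units, against -0.33 to 0.64 for the 10 genes, several of which were picked for being high in vector 1. Genes of a list that move in opposite directions cancel in such a mean, so single list genes can vary more widely.

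Of 14 other AP-1 and related subunits, 9 were tested, with 0 passing, 1 higher at an unadjusted p under 0.05 and a median log2 difference of 0.01. Of the FOS relatives, Fosl1 and Fosl2 did not share the course of Fos. Fosl1, which encodes FRA-1, measured 80.5, 50.9 and 85.1 FPKM in STYK1 1, 2 and 3, against 59.2, 68.7 and 79.25 FPKM in vector 1, 2 and 3, and was lowest in STYK1 2 and vector 1. Fosl2, which encodes FRA-2, measured 44.1, 50.0 and 41.55 FPKM in STYK1 and 34.8, 48.1 and 44.0 FPKM in vector libraries, lowest in vector 1 and highest in STYK1 2. Fosb, the closest relative of Fos, measured 6.58, 7.45 and 5.19 FPKM in STYK1 and 8.56, 5.98 and 6.16 FPKM in vector libraries, with the same high pair as Fos. The small MAF gene Mafk also had this pair, with 14.1, 18.0 and 13.75 FPKM in STYK1 and 19.0, 15.0 and 15.9 FPKM in vector libraries.

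Of 55 other immediate early genes, 44 were tested, with 0 passing, 1 higher and 1 lower at an unadjusted p under 0.05 and a median log2 difference of -0.03. Vector 1 was the highest library for 21 of the 44 (47.7%) and the lowest for 13 (29.5%), against 37.1% and 36.2% of all genes, and vector 1 and STYK1 2 were the highest pair for 13 (29.5%), against 15.6%. Vector 1 was thus at the high end for some immediate early genes and at the low end for others. Cebpd, a C/EBP factor of the acute phase, measured 108, 143 and 106 FPKM in STYK1 1, 2 and 3, against 242, 155 and 135 FPKM in vector 1, 2 and 3, and was the lower gene with a small p. Ier3, a stress-induced survival gene, measured 210, 267 and 221 FPKM in STYK1 and 408, 315 and 226 FPKM in vector libraries. In both genes vector 1 was the highest library, as it was for the 10 genes. Id3, an inhibitor of basic helix-loop-helix factors, measured 27.2, 16.1 and 29.6 FPKM in STYK1 and 12.8, 30.25 and 36.2 FPKM in vector libraries. Dusp4, a phosphatase of MAP kinases, measured 39.5, 37.2 and 40.8 FPKM in STYK1 and 14.8, 34.8 and 38.7 FPKM in vector libraries. These 2 were lowest in vector 1, and Id3 was low in STYK1 2 as well. Klf6, the higher gene with a small p, averaged 71.9 ± 4.87 FPKM in STYK1 and 59.3 ± 8.23 FPKM in vector libraries (SD, n = 3 each).

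The integrated stress response, in which ATF4 drives Atf3 and other genes when translation initiation is curbed, had 25 of 29 genes tested, with 0 passing and a median log2 difference of -0.07. Its STYK1 libraries had 3 higher and 2 lower genes at that unadjusted threshold. The lower ones were Phgdh and Eif4ebp1. Phgdh, of serine synthesis, averaged 43.3 ± 1.21 FPKM in STYK1 and 51.35 ± 3.45 FPKM in vector libraries (SD, n = 3 each). Eif4ebp1, a repressor of translation, averaged 157 ± 7.74 FPKM in STYK1 and 206 ± 43.0 FPKM in vector libraries. Both had all 3 STYK1 libraries below all 3 vector libraries, an order that 9.44% of all genes had. Among the higher ones, Pycr1, of proline synthesis, averaged 3.44 ± 0.284 FPKM in STYK1 and 2.39 ± 0.404 FPKM in vector libraries. Vector 1 was the highest library for 14 of the 25 (56.0%), against 37.1% of all genes, and vector 1 and STYK1 2 were the highest pair for 4 (16.0%), against 15.6%. Chac1, a glutathione-degrading enzyme downstream of ATF4, measured 8.96, 12.0 and 8.51 FPKM in STYK1 1, 2 and 3, against 16.8, 8.58 and 7.82 FPKM in vector 1, 2 and 3. Trib3, a pseudokinase of the same response, measured 2.68, 4.74 and 2.80 FPKM in STYK1 and 6.17, 4.80 and 3.73 FPKM in vector libraries. Vldlr, at 2.04, 0.90 and 1.43 FPKM in STYK1 and 0.91, 2.52 and 1.73 FPKM in vector libraries, was lowest in STYK1 2 and vector 1.

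Of 21 genes of the GADD45 family and the p53 response, 20 were tested, with 0 passing, 1 higher and 1 lower at an unadjusted p under 0.05 and a median log2 difference of 0.01. This list had vector 1 and STYK1 2 as the highest pair for 9 of 20 genes, against 15.6% of all genes. Gadd45g, a close relative of Gadd45b, measured 9.37, 19.2 and 7.21 FPKM in STYK1 1, 2 and 3, against 30.2, 9.58 and 12.98 FPKM in vector 1, 2 and 3, and had the widest range of the list. Relative to the mean of the other 4 libraries, Gadd45g was 3.08 times as high in vector 1 and 1.96 times in STYK1 2, above the 2.35 and 1.55 times of Gadd45b. Bbc3, which encodes the pro-apoptotic protein PUMA, measured 24.7, 29.5 and 22.25 FPKM in STYK1 and 43.45, 22.5 and 19.9 FPKM in vector libraries. Cdkn1a, the CDK inhibitor p21, measured 298, 361 and 313 FPKM in STYK1 and 492, 345 and 329 FPKM in vector libraries. Ccng1, cyclin G1, the higher gene with a small p, was lowest in vector 1, with 52.8, 59.5 and 55.6 FPKM in STYK1 and 24.1, 43.8 and 48.55 FPKM in vector libraries.

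Genes tied to Ddit4 through hypoxia, glucocorticoids or mTORC1 had 18 of 20 members tested, with 0 passing, 0 at an unadjusted p under 0.05 and a median log2 difference of 0.09. Vector 1 was the highest library for 2 of the 18 (11.1%) and the lowest for 8 (44.4%), against 37.1% and 36.2% of all genes. Klf9, a glucocorticoid target, measured 40.05, 43.9 and 38.1 FPKM in STYK1 1, 2 and 3, against 18.25, 33.2 and 36.8 FPKM in vector 1, 2 and 3. Pdk1, a kinase that curbs pyruvate dehydrogenase in hypoxia, measured 4.60, 3.55 and 2.67 FPKM in STYK1 and 1.21, 3.25 and 2.56 FPKM in vector libraries. Both were lowest in vector 1, where Ddit4 was highest.

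The kinases and factors upstream of AP-1 and Egr1 had 29 of 33 members tested, with 0 passing, 0 higher and 2 lower at an unadjusted p under 0.05 and a median log2 difference of 0.09. Vector 1 was the lowest library for 17 of the 29 (58.6%) and the highest for 7 (24.1%), against 36.2% and 37.1% of all genes. Vector 1 and STYK1 2 were the highest pair for 2 (6.90%), against 15.6%. Mapk8, which encodes JNK1, the kinase of c-JUN, measured 14.05, 13.4 and 12.3 FPKM in STYK1 1, 2 and 3, against 7.35, 12.6 and 13.3 FPKM in vector 1, 2 and 3. Nab2, a corepressor that binds EGR1, measured 6.94, 9.67 and 5.87 FPKM in STYK1 and 12.5, 7.28 and 6.98 FPKM in vector libraries, highest in the same pair as Jun and Fos. Mapk3, which encodes ERK1, averaged 49.2 ± 3.32 FPKM in STYK1 and 60.0 ± 6.60 FPKM in vector libraries (SD, n = 3 each).

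Of 20 genes that AP-1 is known to drive, 18 were tested, with 0 passing, 0 higher and 3 lower at an unadjusted p under 0.05 and a median log2 difference of 0.01. At that threshold 4.95% of all genes were higher and 4.88% lower. The split over all list genes depended on the scaling, as given above. The 3 lower genes were Plaur, the urokinase receptor, Mmp9, a gelatinase, and Hmox1, heme oxygenase. Plaur measured 0.95, 1.27 and 1.62 FPKM in STYK1 1, 2 and 3, against 2.34, 2.66 and 1.93 FPKM in vector 1, 2 and 3. Mmp9 averaged 87.8 ± 7.15 FPKM in STYK1 and 104 ± 2.55 FPKM in vector libraries (SD, n = 3 each). For Plaur and Mmp9 all STYK1 libraries lay below all vector libraries, an order that 9.44% of all genes had. Hmox1, at 49.9 ± 7.43 FPKM in STYK1 and 60.7 ± 3.80 FPKM in vector libraries, had a small overlap. Vector 1 was the highest library for 3 of these 18 targets (16.7%), against 37.1% of all genes, and the highest pair of the AP-1 genes recurred in 1 (5.56%), against 15.6%. The cytosolic heat shock genes had 12 of 14 members tested, with 0 passing, 1 lower at an unadjusted p under 0.05 and a median log2 difference of -0.05. Cryab, a small heat shock protein and the lower gene, averaged 25.7 ± 2.57 FPKM in STYK1 and 34.7 ± 6.43 FPKM in vector libraries.

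**Figure D5:**
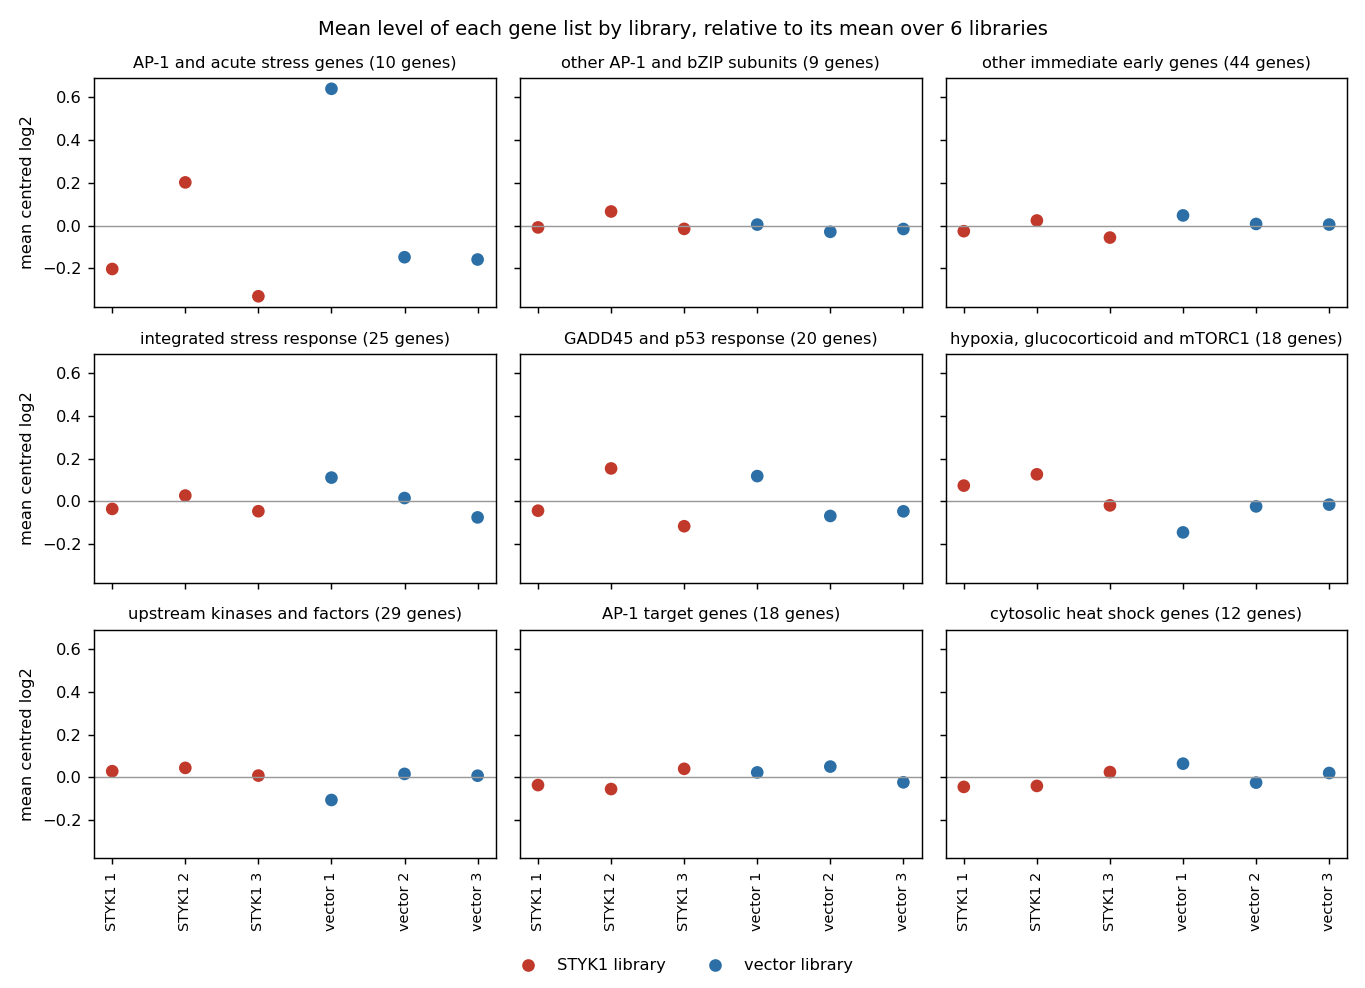
Mean over the genes of each list of log2(FPKM + 1) minus its mean over the 6 libraries (vertical axis, same scale in all panels), in STYK1 libraries (red, left) and vector libraries (blue, right). The 10 AP-1 and acute stress genes reach 0.64 in vector 1 and 0.20 in STYK1 2, and the other lists reach 0.15 at most.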

How the data were processed

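Per the labels' protocols, Trizol RNA (1 ug per library) went into the TruSeq RNA kit. The authors deposited FPKM values, 1 per gene and library, per the file headers. Bowtie 0.12.2 and the builds mm8 and mm9 appear, with no role, in the submitters' processing notes. Not given in the sources used here are the tool that made FPKM, the annotation, the use of strand and the handling of reads shared by gene copies. Values of close paralogs and overlapping genes are therefore uncertain. Absolute depth is unknown, and no counting interval is given. Of 16078 IDs, 15049 matched the RefSeq gene table of assembly BCM_Maur_2.0, used only for names.

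The 11464 genes averaging 1 FPKM or more in either group were fitted with limma-trend with robust empirical Bayes (limma 3.58.1, R 4.3.3) on log2(FPKM + 1), STYK1 minus vector, with Benjamini-Hochberg adjustment over all of them. Fold changes on that scale understate changes of low genes. The fit was checked on simulated data. Those data gave each gene the same spread in every library, so the check does not cover a library set apart like vector 1. The pattern search took the 10 genes with the highest r and the 5 with the lowest, and in each list up to 4 genes with the widest range and up to 4 with the smallest p could be named. The genes and lists were chosen with earlier results of these data known. Alternatives were another pseudocount (0.1), other filters, 3 scalings, quality weights, the replicate number as a block and libraries left out. A few genes that this rule would name are not reported here.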

Additional observations from a re-analysis of the deposited data

How the results depend on the processing

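The count of genes passing between STYK1 and vector libraries stayed at 0 with a pseudocount of 0.1, with no filter, with a minimum of 5 FPKM, with each of 3 scalings, without vector 1 and STYK1 2, and with the replicate number as a block. It was 24 with array quality weights (6 higher, 18 lower, vector 1 weighted 0.129), and 0 to 2 with 1 library left out in turn (2 without STYK1 1, without STYK1 3 or without vector 3). None of the 10 genes was called in any of the 15 alternatives. The count of pathway list genes at an unadjusted p under 0.05, 16 in all 6 libraries, was 25 under equal FPKM sums, 33 with quality weights, 10 with the block and 38 without vector 1 and STYK1 2, and between 2 (without STYK1 1) and 22 (without vector 3) with 1 library left out, being 10 without STYK1 2 and 8 without STYK1 3. For these changes the cause was not tested. The median log2 difference of the 10 genes lay between -0.38 and 6.89e-04 with 1 library left out. Of 150 single-gene values under alternatives, 138 moved by no more than 1 SE and 132 were below 0. Of the 12 that moved further, 8 came from leaving out vector 1, every gene but Atf3 and Egr1. Quality weights put Nupr1 at 0.31, Jun at 0.20 and Egr1 at 0.02. The count of genes without overlap between groups was 0 under each scaling, against 21.0% to 28.4% of all genes. For the 8 genes with vector 1 and STYK1 2 as the highest pair, overlap was fixed by the choice of genes. The count was 7 without vector 1 and STYK1 2, against 46.8% of all genes, an omission chosen after seeing the data. Deviations of same-numbered libraries from their group means had correlations of -0.273, -0.156 and 0.113 over genes. With 3 libraries per group and vector 1 far from the rest, these values cannot show whether the numbers pair the samples. The block left 831 genes at an unadjusted p under 0.05, against 1128 without it.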
